A study of Mus musculus with 12 samples.

Results

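Choroid plexus (CP) tumors of 21-day-old mice with forced Notch signaling were compared with normal choroid plexus of the same age. The comparison used 6 of the 12 samples of the study: the 3 titled as CP tumor at P21 (postnatal day 21), here tumors 1, 2 and 3, and the 3 titled as CP at P21, here CP 1, 2 and 3. The remaining 6 samples are the same tissues at P0, the day of birth, and were used only to ask whether the tumor difference changed with age. Total RNA was measured on Illumina mouse BeadChips, glass arrays on which beads carry gene-specific oligonucleotides.

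The tumors came from the hindbrain choroid plexus of Math1-cre;Rosa26-NICD1 mice on a C57BL/6 background. In these animals Cre recombinase, driven by the Math1 gene (now named Atoh1), switches on the intracellular domain of Notch1 from the Rosa26 locus, so only cells with a history of Math1 expression, and their descendants, carry the active receptor. The control was hindbrain choroid plexus of wild type C57BL/6 mice, with neither Cre nor the Rosa26 allele. Tissue of several animals of a genotype was pooled for each sample, per the labels. How many animals entered a pool, of which sex and from which litters, is not stated there, and p-values measure the spread between these pools. All 6 arrays lay on 1 BeadChip, with tumors on the first positions and CP on the later ones, and position and genotype cannot be told apart.

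The choroid plexus makes cerebrospinal fluid. Its epithelium carries tufts of cilia on each cell, pumps ions and water, and secretes carrier proteins such as transthyretin, and its folds enclose a stroma of vessels, fibroblasts and macrophages. Notch is a receptor whose freed intracellular domain joins the DNA-binding protein RBPJ and switches on genes of the Hes and Hey families, which keep progenitors from differentiating. In the developing choroid plexus, loss of Notch activity goes with the formation of multiciliated epithelial cells, a step started by GEMC1 (gene Gmnc).

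Signals are given as log2 values after background correction and quantile normalization, so that a difference of 1 is a change of a factor of 2. Where several probes read a gene, the brightest was used. Of the 11530 genes with a probe detected on at least 3 of the 6 arrays, 3230 (28%) differed between tumors and CP in the limma test at an adjusted p under 0.05. Of these, 1630 (14.1% of the genes tested) were higher in tumors and 1600 (13.9%) were lower. Changes of at least 1 on the log2 scale were more often rises, at 1009 higher and 607 lower, while the median over all genes was -0.06. The split depends on the scaling: with cyclic loess 1990 genes were higher and 1248 lower, and with median scaling 2046 were higher and 849 lower, with the median of all genes at 0.09 on that scale. The count of 3230 was 1964 without tumor 2 and 1951, 1839 and 2147 without CP 1, CP 2 and CP 3. The groups did not overlap for 5381 genes (46.7%), 2509 (21.8%) with every tumor above every CP sample and 2872 (24.9%) with every tumor below.

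Choroid plexus identity was plain on all 6 arrays. Ttr (transthyretin) stood at 15.95, 15.94 and 15.94 in tumors 1, 2 and 3 and at 16.07, 16.07 and 16.01 in CP 1, 2 and 3. Both groups sit at the upper end of the measurable range, which compresses differences, and that of -0.11 ± 0.12 (SE) did not pass (limma adjusted p = 0.517). Otx2, the homeobox factor of choroid plexus epithelium, was also close in both groups, at 14.38, 14.13 and 14.29 in tumors against 14.39, 14.51 and 14.48 in CP (-0.19 ± 0.13, adjusted p = 0.327). Lmx1a, a roof plate factor of the tissue's origin, stood at 11.57, 12.07 and 11.86 in tumors and at 11.39, 11.55 and 11.39 in CP (0.38 ± 0.17, adjusted p = 0.129), and the difference passed without tumor 1 (0.52, adjusted p = 0.0289).

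Tumor 1 stood apart from the other tumors by genes of neurons and myelin. On this array 557 genes (4.83%) lay more than 1 log2 unit above the mean of tumors 2 and 3, whereas tumor 2 had 54 such genes against the mean of tumors 1 and 3, tumor 3 had 160, and each CP sample had 27 to 37. More than 1 log2 unit below lay 294 genes in tumor 1, 259 in tumor 2, 363 in tumor 3 and 32 to 51 in each CP sample. Tumor 1 is part of the means set against tumors 2 and 3, so it enters their counts. Its mean correlation with the other tumors was 0.943, and those of CP arrays with each other were 0.989 to 0.990. Of the 22 tested members of the neuron list, 19 were highest in tumor 1 among all 6 arrays, as were 7 of 7 granule neuron genes and 17 of 20 oligodendrocyte genes, beside 2222 of all 11530 genes (19.3%). The plot of marker lists by array shows these shifts gene by gene.

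**Figure D1:**
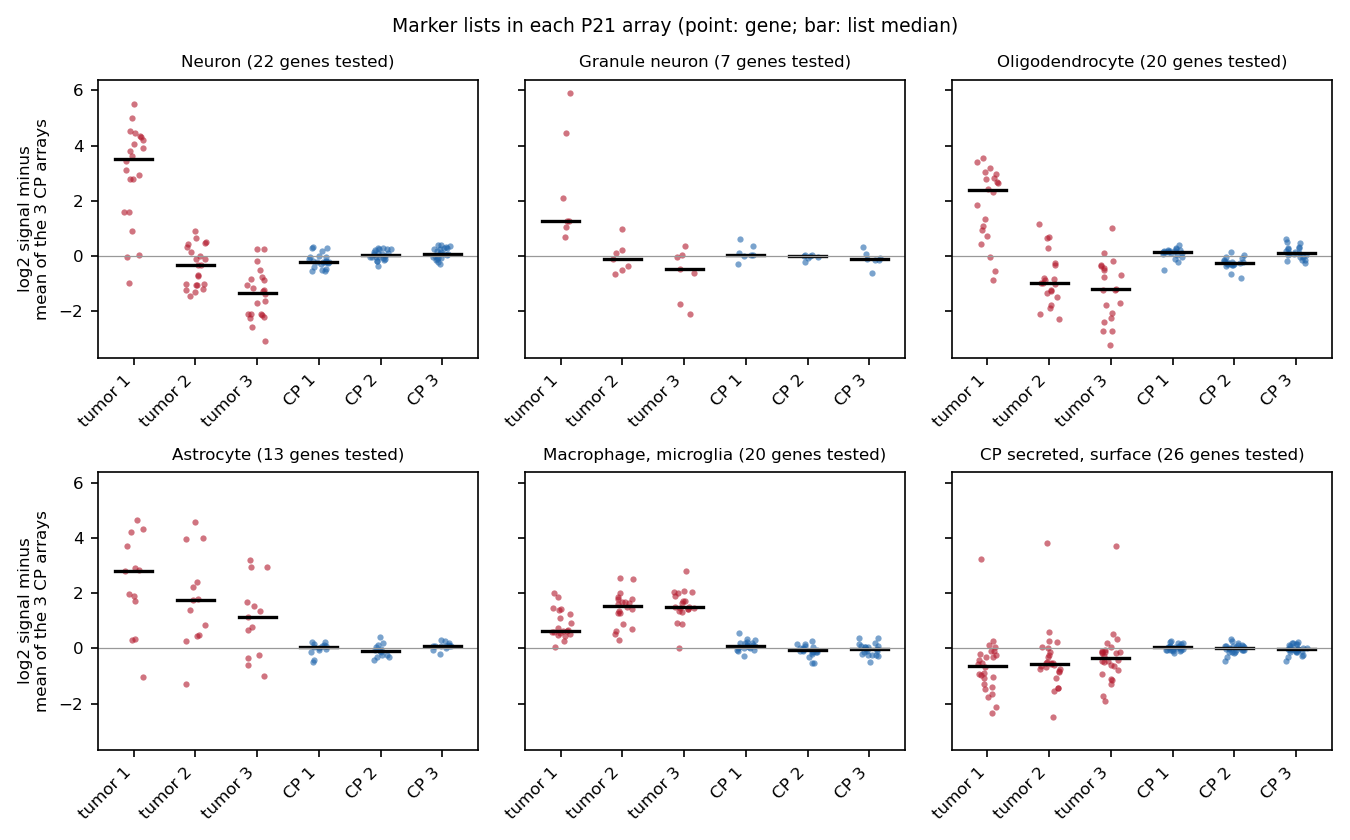
Signal of the tested members of 6 marker lists on each P21 array, as log2 signal minus the mean of the 3 CP arrays. Each point is a gene, the bar is the list median, tumors are red and CP is blue. Tumor 1 has medians far above the other arrays for neuron, granule neuron and oligodendrocyte genes, while tumors 2 and 3 have medians below CP. For granule neuron genes the gap of tumor 2 is slight, with a median of -0.12 against -0.08 in CP 3. For astrocyte and macrophage genes all 3 tumors have medians above CP.

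Among the genes with the largest excess in tumor 1, Calb2, the calcium-binding protein calretinin, stood at 12.45 in tumor 1 and at 5.89 and 5.28 in tumors 2 and 3, against 8.42, 7.27 and 7.40 in CP. Vsnl1, a neuronal calcium sensor, stood at 13.36, 7.99 and 5.93 in tumors and at 8.79, 8.98 and 9.27 in CP. Cbln1, secreted by cerebellar granule neurons, stood at 14.51, 9.57 and 6.84 in tumors and at 8.97, 8.36 and 8.43 in CP. In each of these genes, chosen for an excess over tumors 2 and 3, tumor 1 also lay above every CP sample. Stmn2 (stathmin-2, of growing axons) showed 12.84, 7.99 and 5.64 in tumors against 7.86, 7.81 and 7.87 in CP. The nuclear neuronal marker Rbfox3 (NeuN) showed 12.75, 8.19 and 6.23 in tumors against 8.03, 8.26 and 8.63 in CP. Etv1, a transcription factor of maturing granule neurons, showed a smaller gap, with 11.48, 8.70 and 8.75 in tumors against 9.35, 9.27 and 9.44 in CP.

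Genes of myelin were also highest in tumor 1. The order of tumor 1 at the top, all CP samples between, and tumors 2 and 3 at the bottom held for 12 of the 20 tested oligodendrocyte genes and for 9 of the 22 neuron genes. Mbp, the myelin basic protein, stood at 14.74, 9.84 and 8.62 in tumors and at 11.52, 10.53 and 11.95 in CP. Mobp, another myelin protein, stood at 11.74, 6.80 and 5.47 in tumors and at 8.81, 8.06 and 9.19 in CP. Ugt8a, which makes the myelin lipid galactosylceramide, stood at 11, 5.54 and 5.09 in tumors and at 7.95, 7.48 and 7.98 in CP. All 3 CP samples lay above both tumors 2 and 3 for 15 of the 20 tested oligodendrocyte genes and for 12 of the 22 neuron genes. Some neural RNA was thus measurable in every CP sample too: the summed signal of the neuron list was 71465, 4664 and 2333 in tumors 1, 2 and 3, against 4863, 5706 and 5977 in CP. The summed signal of the oligodendrocyte list was 89553, 32660 and 31951 in tumors, against 35750, 25959 and 33468 in CP. Without Cldn11, which was higher in all tumors, it was 65511, 11714 and 12950 in tumors, against 25573, 17821 and 23626 in CP. In tissue RNA of this kind, fewer cells of a type and less RNA per cell cannot be told apart.

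Calls for neural genes depended on whether tumor 1 was included. With all 6 arrays, 0 neuron genes were higher and 1 was lower, the postsynaptic protein gene Nrgn (-1.18 ± 0.25, limma adjusted p = 0.0138), a call lost without tumor 2, CP 2 or CP 3. Without tumor 1, 0 neuron genes were higher and 9 lower. The neuron list's median was 0.58 with tumor 1 and -0.99 without it, a change of sign. The oligodendrocyte list had 1 gene higher (Cldn11, a claudin of myelin that meninges also express) and 1 lower (Pdgfra, of oligodendrocyte precursors and fibroblasts) with tumor 1, and 1 higher and 13 lower without it. Over all genes, 3849 (33.4%) passed without tumor 1 (1948 higher and 1901 lower), of which 3061 were shared in the same direction with the 3230 calls on 6 arrays, 169 calls were lost and 788 were new. The median SD of a gene among the tumors was 0.243 with tumor 1 and 0.143 without it, against 0.158 among CP samples. The value of 0.143 is from 2 arrays and the others are from 3. A median SD tends to be smaller with fewer arrays, so 0.143 is not directly comparable with the others.

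Sex-linked genes, chosen after their values were seen, differed between pools. Xist, the RNA that silences an X chromosome in females, stood at 10.99, 4.65 and 10.22 in tumors and at 9.56, 4.78 and 9.86 in CP. The Y-linked gene Eif2s3y stood at 4.69, 10.12 and 4.71 in tumors and at 9.99, 10.19 and 9.79 in CP. A weaker Y-linked gene, Uty, stood at 5.88, 6.47 and 5.57 in tumors, detected on 2 of 3 arrays, and at 6.81, 7.84 and 6.89 in CP. Xist was high in tumors 1 and 3 and in CP 1 and CP 3, and Eif2s3y was high in tumor 2 and in all CP samples. The part of sex in the tumor differences was not tested.

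Notch target genes were higher in tumors almost throughout. Of the 9 tested members of a list of direct Notch targets, 8 rose and 0 fell, with a median of 1.75, beside 14.1% higher and a median of -0.06 over all genes. The count was 5 when only genes detected on all 6 arrays were tested. The receptor itself was measured first. Notch1 stood at 10.25, 10.65 and 10.69 in tumors, against 8.20, 8.14 and 8.89 in CP, a difference of 2.12 ± 0.24 (limma adjusted p = 0.00117) or 4.34-fold. Every tumor lay above every CP sample. Where the probe lies in the transcript is not stated in the files or labels, so the share of this signal that comes from the transgene is not known.

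**Figure D2:**
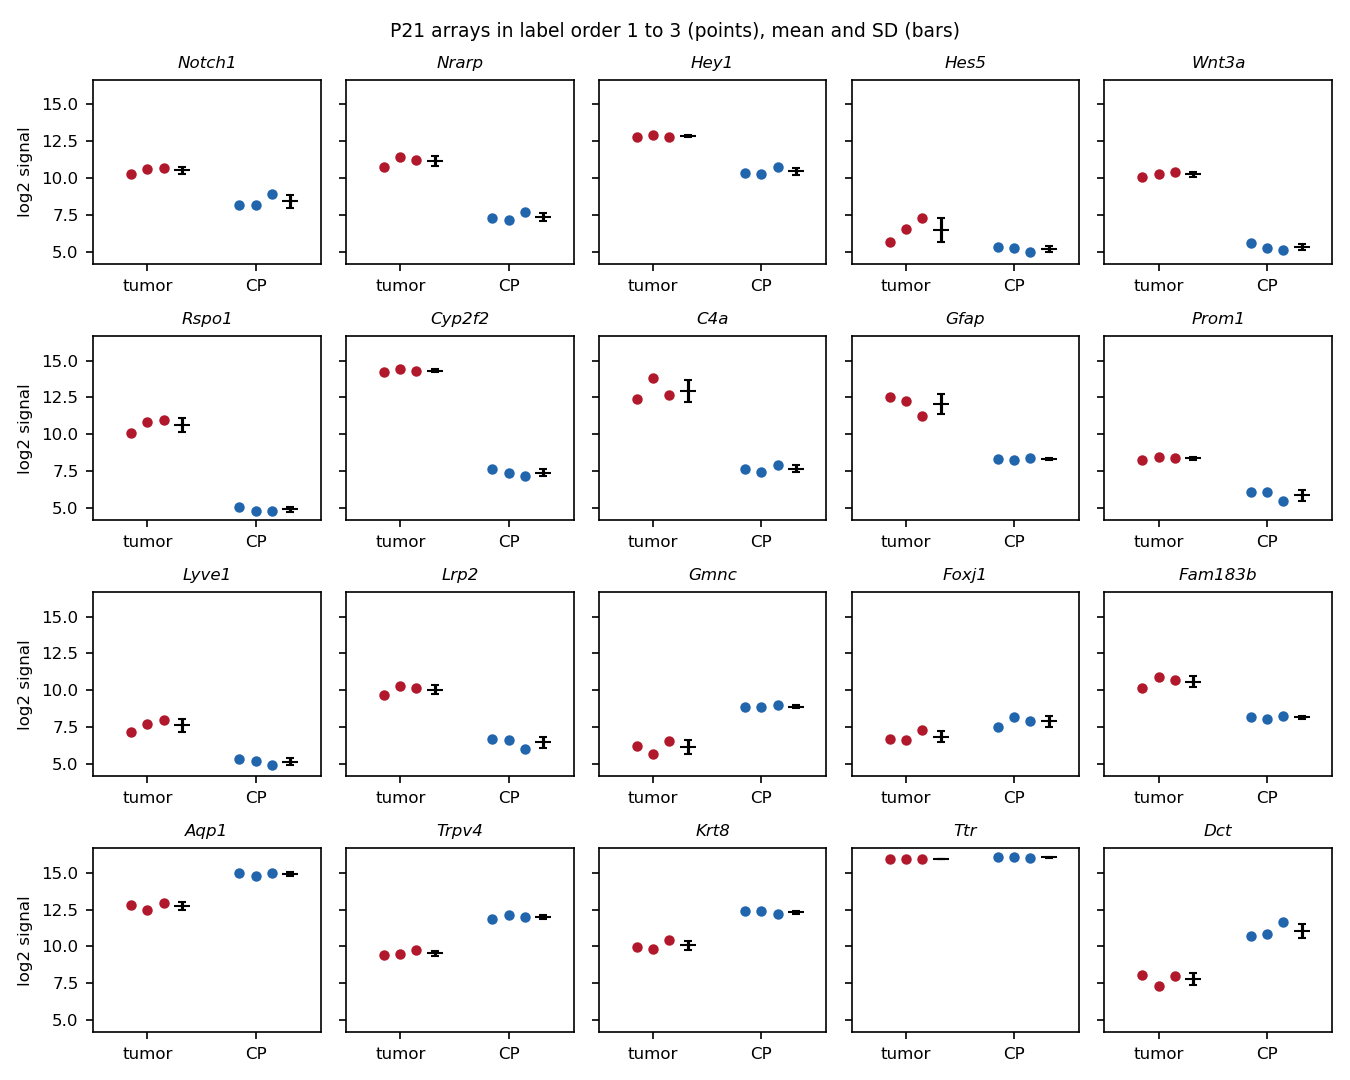
Log2 signal of 20 genes on each P21 array, with tumors (red) to the left of CP (blue); points are samples 1 to 3 from left to right, and the bar beside them is the mean with its SD. Notch1, Nrarp and Hey1 are separated between groups, Hes5 lies near background in CP, Gmnc and Aqp1 are lower in all tumors, and Ttr is level at the top of the scale.

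Nrarp, a feedback inhibitor of Notch that also stabilizes the Wnt effector LEF1, had the largest rise of the targets, with 10.77, 11.45 and 11.20 in tumors against 7.32, 7.12 and 7.67 in CP (3.77 ± 0.23, adjusted p = 0.000118, 13.6-fold). Hey1, a repressor of the Hes and Hey family, was uniform among tumors at 12.79, 12.94 and 12.79, against 10.35, 10.25 and 10.75 in CP (2.39 ± 0.17, adjusted p = 0.000209). These groups were separated by more than their own spread. Heyl, of the same family, stood at 7.31, 8.13 and 7.93 in tumors and at 5.42, 5.21 and 5.94 in CP, where it was detected on 1 of 3 arrays (2.27 ± 0.27, adjusted p = 0.00155). Dtx1 (deltex, an E3 ligase that binds Notch) stood at 8.52, 8.71 and 7.89 in tumors and at 5.98, 6.19 and 5.62 in CP (2.44 ± 0.25, adjusted p = 0.000866). Notch3, a receptor that is itself a Notch target and is also abundant in vascular smooth muscle, stood at 8.45, 9.24 and 9.40 in tumors and at 7.2, 6.90 and 7.77 in CP (1.74 ± 0.32, adjusted p = 0.00761).

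Hes genes encode repressors of differentiation. Hes1 stood at 10.02, 10.99 and 10.84 in tumors and at 9.44, 9.04 and 9.37 in CP (1.33 ± 0.27, adjusted p = 0.0119), with tumor 1 the lowest of the tumors and still above CP. Hes5 was low even in tumors, at 5.65, 6.54 and 7.28, and was not detected on any CP array, where its signal was 5.31, 5.23 and 4.95. The rise was at least 1.67-fold (adjusted p = 0.0414), a call that 10 of the alternatives did not keep. Hey2 did not pass and pointed the other way, at 8.96, 9.05 and 9.18 in tumors against 9.61, 9.78 and 9.19 in CP (-0.46 ± 0.18, adjusted p = 0.103). Leaving out CP 2 ended the call of Hes1 (adjusted p = 0.0527).

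Among 15 tested ligands, receptors and cofactors of the pathway, 3 rose and 1 fell, beside 14.1% higher and 13.9% lower over all genes. Maml2, a coactivator of the Notch complex, rose by a little at a high level, with 12.18, 12.26 and 12.05 in tumors against 11.34, 11.29 and 11.51 in CP (0.79 ± 0.14, adjusted p = 0.00641). Its relative Maml1 fell, at 6.50, 6.87 and 6.95 in tumors against 8.33, 7.90 and 8.16 in CP (-1.36 ± 0.18, adjusted p = 0.00238), a call lost with the mean of its probes (adjusted p = 0.0532). Numbl, a relative of the Notch inhibitor Numb, rose by 0.76 ± 0.19 (adjusted p = 0.0269), a call that 8 alternatives did not keep.

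Promoter windows show how the letters of the RBPJ site fall among these targets. The windows are those of RefSeq on GRCm38.p6, 250 bases before to 50 bases after a start, and 7 of the 11 Notch targets on the list have one. The RBPJ core TGGGAA, on either strand, occurs in 4 of these 7 and in 25.6% of all 32851 windows. Hes5 and Hey2 are shown because both hold 2 matches while Hes5 rose and Hey2 did not pass, and Nrarp because it holds none and had the largest rise of the list; capitals mark the core on either strand, and each run is given 5′ to 3′ on the strand of the gene.
Hes5 (chr4:154960673-154960972, plus strand): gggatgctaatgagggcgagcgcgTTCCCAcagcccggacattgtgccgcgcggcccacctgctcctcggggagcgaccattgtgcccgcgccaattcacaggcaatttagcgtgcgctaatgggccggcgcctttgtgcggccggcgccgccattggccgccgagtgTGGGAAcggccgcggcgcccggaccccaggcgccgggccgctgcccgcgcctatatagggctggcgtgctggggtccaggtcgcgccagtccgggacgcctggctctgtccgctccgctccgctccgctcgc
Hey2 (chr10:30842734-30843033, minus strand): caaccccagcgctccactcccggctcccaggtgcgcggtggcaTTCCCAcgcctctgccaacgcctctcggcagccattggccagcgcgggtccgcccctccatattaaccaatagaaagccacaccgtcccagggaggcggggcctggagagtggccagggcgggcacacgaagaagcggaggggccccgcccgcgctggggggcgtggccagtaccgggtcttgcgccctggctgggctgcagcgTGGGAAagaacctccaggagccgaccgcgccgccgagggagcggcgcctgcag
Nrarp (chr2:25180508-25180807, plus strand): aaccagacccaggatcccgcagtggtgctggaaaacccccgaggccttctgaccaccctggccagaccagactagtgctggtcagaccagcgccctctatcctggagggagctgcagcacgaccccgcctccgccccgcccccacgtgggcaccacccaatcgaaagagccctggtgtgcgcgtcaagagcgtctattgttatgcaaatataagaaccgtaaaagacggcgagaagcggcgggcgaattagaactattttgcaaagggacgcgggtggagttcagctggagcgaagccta
A match describes the letters of this window only, and its absence says nothing of binding elsewhere.

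The largest changes of all were rises, with Rspo1, Fzd10 and Wnt3a of Wnt signaling among the 12 largest. These 12 were taken from the genes that passed with every tumor above every CP sample, so that separation was a condition of the choice.

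**Figure D3:**
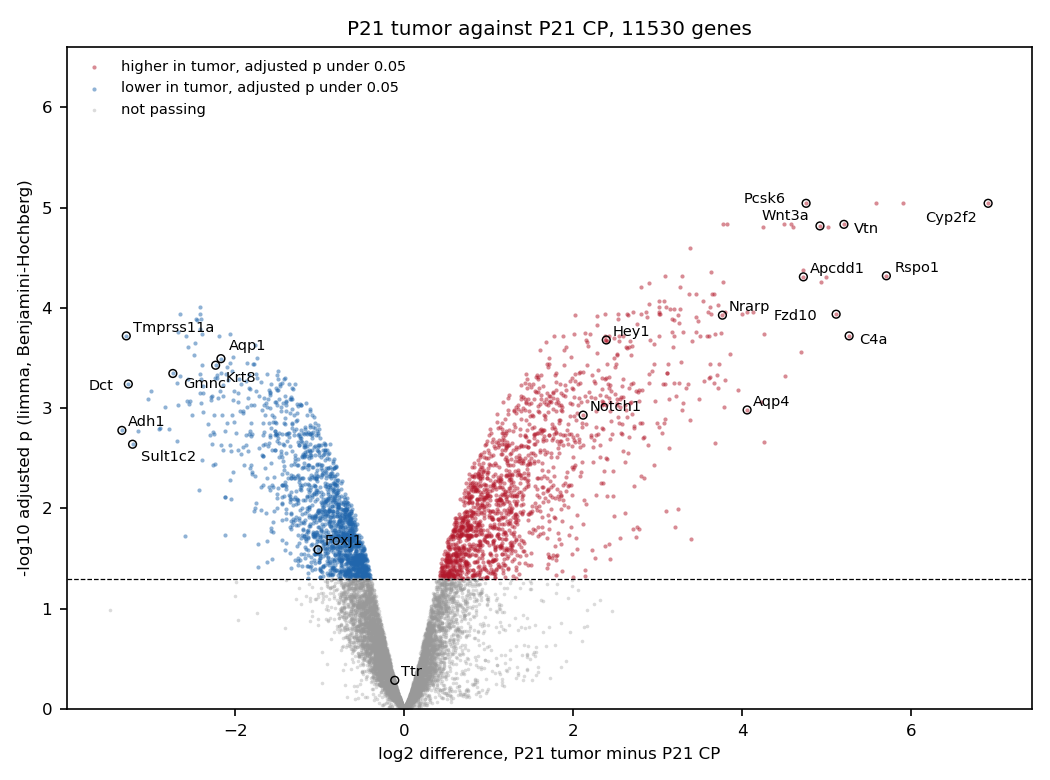
Difference between P21 tumors and P21 CP for each of the 11530 genes tested (horizontal axis, log2, tumor minus CP) against the adjusted p of the limma test (vertical axis, -log10); the dashed line is 0.05, and named genes are ringed. Rises reach 6.92 (Cyp2f2) and falls reach -3.35 (Adh1).

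Cyp2f2, a cytochrome P450 best known from club cells of the lung, stood at 14.23, 14.42 and 14.27 in tumors against 7.63, 7.36 and 7.18 in CP (6.92 ± 0.16, adjusted p = 9.08e-06, 121-fold). Vtn, the adhesion protein vitronectin, stood at 15.45, 15.48 and 15.17 in tumors against 10.12, 9.97 and 10.39 in CP (5.21 ± 0.17, adjusted p = 1.47e-05). Pcsk6, a convertase that activates secreted precursor proteins, stood at 12.44, 12.36 and 12.20 in tumors against 7.61, 7.53 and 7.59 in CP (4.76 ± 0.13, adjusted p = 9.08e-06). All 3 are tight among tumors, tumor 1 included. Sncaip, which encodes the synuclein-binding protein synphilin, rose by 4.94 ± 0.23, Mboat1, a lysophospholipid acyltransferase, by 5.02 ± 0.18, and Shisal1 by 5.91 ± 0.16, with adjusted p-values of 5.47e-05, 1.57e-05 and 9.08e-06. Kcne1l, of the family of potassium channel accessory subunits, was not detected in CP, and tumors were at least 26.8-fold higher (adjusted p = 4.91e-05).

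Genes of Wnt signaling rose among ligands, receptors and targets alike. Wnt signals are secreted proteins that bind Frizzled receptors with LRP co-receptors and free beta-catenin to switch on targets such as Axin2; R-spondins amplify them through Lgr receptors. Of 16 tested ligands, receptors and R-spondins, 8 rose and 3 fell, with a median of 0.91. Of 8 tested target genes, 7 rose and 1 fell, with a median of 2.54. The counts depend on the detection filter. When only genes detected on every array were tested, 3 ligands, receptors and R-spondins rose and 2 fell. Under that filter 5 target genes rose and 0 fell. It leaves out genes not detected in CP, such as Wnt3a and Rspo1.

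Wnt3a, a ligand of the dorsal midline, was not detected on any CP array. It stood at 10.10, 10.24 and 10.42 in tumors, against 5.57, 5.27 and 5.14 in CP, a rise of at least 22.6-fold (adjusted p = 1.53e-05). Rspo1, an R-spondin, was likewise undetected in CP at 5.08, 4.81 and 4.78, against 10.05, 10.80 and 10.96 in tumors, a rise of at least 28.8-fold (adjusted p = 4.8e-05). Tumors and CP are far apart for both. The receptor gene Fzd10 stood at 9.97, 11.13 and 10.13 in tumors and at 5.18, 5.40 and 5.30 in CP, on a probe not detected there, a rise of at least 25.2-fold (adjusted p = 0.000116). Its opposite-strand transcript Fzd10os rose by 5.59 ± 0.15 (adjusted p = 9.08e-06), and both lie at the same locus. Wnt6 and Wnt4 rose by less, at 1.83 ± 0.34 (adjusted p = 0.00806) and 1.69 ± 0.30 (adjusted p = 0.00668), as did Rspo3 (1.34 ± 0.24, adjusted p = 0.00724, and 0.0573 with the mean of its probes), and Wnt8b was at least 1.44-fold higher. The receptor Fzd8 (-1.14 ± 0.30, adjusted p = 0.0294), the co-receptor Lrp5 (-0.96 ± 0.29, adjusted p = 0.0468) and the ligand Wnt5b (-0.84 ± 0.22, adjusted p = 0.027) fell, but the count of falls was 0 with median scaling and without tumor 2, CP 1 or CP 2, and 1 in the fit of 12 arrays.

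Of the targets, Apcdd1, a membrane inhibitor of Wnt, rose most, with 10.81, 11.32 and 11.57 in tumors against 6.48, 6.62 and 6.40 in CP (4.73 ± 0.21, adjusted p = 4.91e-05, 26.5-fold). Axin2, the feedback scaffold most used as a readout of the pathway, stood at 11.73, 11.79 and 11.82 in tumors and at 10.16, 10.18 and 10.20 in CP (1.6 ± 0.12, adjusted p = 0.000264). The gap is many times the spread within either group. Nkd2 and Nkd1, inhibitors acting on Dishevelled, rose by 3.17 ± 0.20 (adjusted p = 0.000131) and 2.59 ± 0.18 (adjusted p = 0.00019). Lgr5, an R-spondin receptor, and Notum, a secreted enzyme that inactivates Wnt ligands, were not detected in CP and were at least 4.26-fold and 1.62-fold higher in tumors. The exception was Lef1, a DNA-binding partner of beta-catenin, at 5.54, 5.30 and 5.31 in tumors, detected on 1 of 3 arrays, against 7.39, 7.72 and 7.61 in CP (-2.19 ± 0.15, adjusted p = 0.00019).

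Sp5, a repressor of Wnt targets, stood at 11.26, 11.33 and 11.37 in tumors against 8.14, 7.38 and 7.55 in CP (3.63 ± 0.21, adjusted p = 0.000115, 12.4-fold). The TCF motif was searched as CTTTGAA or CTTTGAT on either strand, found in 8.65% of all windows. Windows were searched for 7 Wnt targets of the list, and that of Sp5 is shown because only it holds the motif. Other Wnt targets of the list, Apcdd1 among them, had no window searched, so nothing is known of the motif there. Capitals mark the match.
Sp5 (chr2:70474673-70474972, plus strand): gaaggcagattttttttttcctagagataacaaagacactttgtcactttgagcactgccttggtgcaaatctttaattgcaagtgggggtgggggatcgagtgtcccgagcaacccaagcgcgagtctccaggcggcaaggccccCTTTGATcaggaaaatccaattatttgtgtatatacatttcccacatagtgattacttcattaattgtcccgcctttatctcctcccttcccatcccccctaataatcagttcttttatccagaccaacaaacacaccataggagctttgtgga

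No tested Hedgehog target passed as higher in tumors. The study's title concerns Sonic Hedgehog from the epithelium, a ligand whose receptor gene Ptch1 is itself a target. Ptch1 stood at 10.99, 10.42 and 10.81 in tumors and at 10.39, 10.63 and 10.81 in CP (0.13 ± 0.19, adjusted p = 0.651), and the groups overlap. Of 5 tested targets, 0 rose and 1 fell, Sfrp1, a secreted Wnt antagonist (-1.21 ± 0.20, adjusted p = 0.00578), and that call was lost with the mean of its probes. Of 6 tested pathway members 4 rose. Gli3, mainly a repressor in this pathway, stood at 8.56, 9.24 and 8.84 in tumors against 7.70, 6.87 and 7.42 in CP (1.55 ± 0.26, adjusted p = 0.00596). Cdon, a co-receptor, rose by 0.90 ± 0.15 (adjusted p = 0.00501), and Gli2 and Sufu, an activator and an inhibitor, by 0.97 ± 0.28 and 0.80 ± 0.19 (adjusted p = 0.0409 and 0.0189); with tumor 2 or any of the CP samples left out, the count was 2. Gli1, Shh and Mycn did not pass the detection filter. In the BMP list 3 of 11 rose and 0 fell, namely the antagonist Nog (1.99 ± 0.19, adjusted p = 0.000623), the ligand Bmp5 (at least 1.64-fold higher) and the target Id4 (1.11), and 7 rose without tumor 1.

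Genes of multiciliated differentiation were lower at the top of the cascade, while cilium components were mixed. Of 12 tested regulators, 0 rose and 5 fell, beside 13.9% lower over all genes. Mcidas, Cdc20b and Ccdc78, also on this list, did not pass the detection filter. Gmnc, the starter of the program, stood at 6.24, 5.66 and 6.54 in tumors against 8.83, 8.84 and 8.99 in CP (-2.74 ± 0.23, adjusted p = 0.000451, 6.69-fold lower). Every tumor lay at least 2 log2 units below every CP sample. Trp73, the transcription factor p73 that acts next, was not detected in any tumor and was at least 2.12-fold lower (adjusted p = 0.0127), at 5.37, 5.22 and 5.11 in tumors against 6.25, 7.31 and 6.33 in CP. Foxj1, the master factor of motile cilia, stood at 6.69, 6.59 and 7.30 in tumors and at 7.5, 8.21 and 7.93 in CP (-1.02 ± 0.26, adjusted p = 0.0257). Its highest tumor lay just below its lowest CP sample, and the call was lost with median scaling (adjusted p = 0.0794) and without tumor 2, CP 2 or CP 3. Ccno, a cyclin-like factor of basal body amplification, fell by 0.71 ± 0.20 (adjusted p = 0.0416), and 12 alternatives did not keep that call. Rfx3, a ciliary transcription factor, fell by 0.48 ± 0.13 (adjusted p = 0.0375), a call lost in 10 alternatives. The count of regulators that fell was 3 with cyclic loess and 2 with median scaling, and 2 or 3 with tumor 2, tumor 3 or any of the CP samples left out.

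Of 36 tested genes of motile cilia, 4 rose and 9 fell, beside 14.1% higher and 13.9% lower over all genes. Their median was -0.36, and 5 fell in the fit of 12 arrays. Fam183b, of motile ciliated cells, stood at 10.14, 10.88 and 10.72 in tumors against 8.17, 8.05 and 8.25 in CP (2.42 ± 0.21, adjusted p = 0.00049, 5.37-fold). Dnah2, an axonemal dynein heavy chain, rose by 1.70 ± 0.14 (adjusted p = 0.000389), and Tppp3, a tubulin-binding protein, by 1.67 ± 0.24 (adjusted p = 0.00286). Among those that fell, Ccdc113, of the base of cilia, stood at 10.19, 10.37 and 10.51 in tumors and at 11.70, 11.82 and 11.78 in CP (-1.41 ± 0.14, adjusted p = 0.000749). Of 25 genes for intraflagellar transport or the primary cilium, 0 rose and 5 fell, beside 13.9% lower over all genes. The falls were led by Ift57 (-1.35 ± 0.27, adjusted p = 0.0113), Rpgrip1l (-0.86 ± 0.13, adjusted p = 0.00441) and Bbs9 (-0.84 ± 0.13, adjusted p = 0.00353). Their count was 3 with any of the CP samples left out and 2 in the fit of 12 arrays.

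The specialized functions of choroid plexus epithelium were lower in tumors. Of 26 tested transporters, channels and carbonic anhydrases, 2 rose and 15 fell, with a median of -0.81, and of 26 genes of secreted, surface and structural epithelial proteins, 1 rose and 12 fell, with a median of -0.51. Aqp1, the apical water channel, stood at 12.78, 12.47 and 12.96 in tumors against 14.96, 14.76 and 15 in CP (-2.17 ± 0.17, adjusted p = 0.000321, 4.51-fold lower). Trpv4, a calcium channel that senses osmolarity, stood at 9.43, 9.46 and 9.73 in tumors against 11.86, 12.15 and 11.97 in CP (-2.45 ± 0.15, adjusted p = 0.000133). Slc16a8, a lactate transporter, fell as much (-2.48 ± 0.18, adjusted p = 0.000225), and Slc12a4, a potassium-chloride cotransporter, fell by 1.93 ± 0.27 (adjusted p = 0.00286). Atp1b2, a beta subunit of the sodium pump that is abundant in astrocytes, rose by 1.59 ± 0.20 (adjusted p = 0.00176), and Car14, a membrane carbonic anhydrase, rose by 0.65 ± 0.16 (adjusted p = 0.0257), a call lost in 8 alternatives. With any array other than tumor 1 left out, 1 of the transporters rose in place of 2.

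The keratins of simple epithelia fell together, Krt8 with 9.98, 9.85 and 10.41 in tumors against 12.37, 12.40 and 12.18 in CP (-2.23 ± 0.18, adjusted p = 0.000374) and its partner Krt18 by 1.44 ± 0.19 (adjusted p = 0.00229). Ace, the angiotensin-converting enzyme, fell by 1.65 ± 0.22 (adjusted p = 0.00229). The one rise among the surface proteins was Lrp2 (megalin), an endocytic receptor, at 9.69, 10.28 and 10.16 in tumors against 6.71, 6.65 and 6.01 in CP (3.59 ± 0.25, adjusted p = 0.00019, 12-fold). The groups were more than 2 log2 units apart. With tumor 2, CP 1 or CP 2 left out, 7, 6 and 7 genes of this list fell in place of 12.

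Junction and adhesion genes moved in both directions. Of 14 tight junction genes, 4 rose and 4 fell, and 2 rose without CP 1 or CP 2. Jam2, a junctional adhesion molecule, stood at 11.03, 11.03 and 10.75 in tumors against 8.17, 8.20 and 8.49 in CP (2.65 ± 0.16, adjusted p = 0.000118). Tjp3, a tight junction scaffold, fell by 2.51 ± 0.28 (adjusted p = 0.00116). Cldn5, the claudin of brain endothelium, rose by 1.28 ± 0.28 (adjusted p = 0.015), a call lost without CP 1 or CP 2. Cdh3 (P-cadherin) stood at 8.01, 7.91 and 8.73 in tumors and at 10.60, 10.57 and 10.36 in CP (-2.29 ± 0.24, adjusted p = 0.000831), whereas Cdh1 (E-cadherin) rose, at 8.63, 9.23 and 9.14 in tumors against 7.27, 7.81 and 7.80 in CP (1.37 ± 0.23, adjusted p = 0.00564). The 2 cadherins moved in opposite directions.

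The 12 largest falls were likewise taken from genes that passed with every tumor below every CP sample. Gmnc, described above, and the melanin enzyme Dct were among them. Adh1, an alcohol dehydrogenase, stood at 8.37, 7.38 and 9.14 in tumors against 11.48, 11.60 and 11.85 in CP (-3.35 ± 0.41, adjusted p = 0.00167, 10.2-fold lower). Sult1c2, a sulfotransferase, was not detected in any tumor, at 4.92, 4.88 and 4.93 against 9.21, 7.44 and 7.74 in CP, and was at least 6.01-fold lower in tumors (adjusted p = 0.00229). Tmprss11a, a membrane serine protease, fell by 3.29 ± 0.23 (adjusted p = 0.00019). The remaining genes among these 12 were Vpreb1, a surrogate light chain of pre-B cells (-3.15), Pik3c2g, a phosphoinositide kinase (-3.03), Dpep1, a dipeptidase (-3.0), Myrip, a linker of Rab proteins to myosin (-2.91), Ltc4s, the leukotriene C4 synthase (-2.90), Defb11, a beta-defensin (-2.84), and Inmt, an N-methyltransferase (-2.79), with adjusted p-values of 0.00171, 0.000805, 0.000681, 0.0016, 0.00159, 0.000965 and 0.0016. Dlk1, an imprinted membrane protein of fetal tissues, fell as well, at 10.90, 11.38 and 12 in tumors against 14.33, 13.85 and 14.13 in CP (-2.68 ± 0.29, adjusted p = 0.000941).

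**Figure D4:**
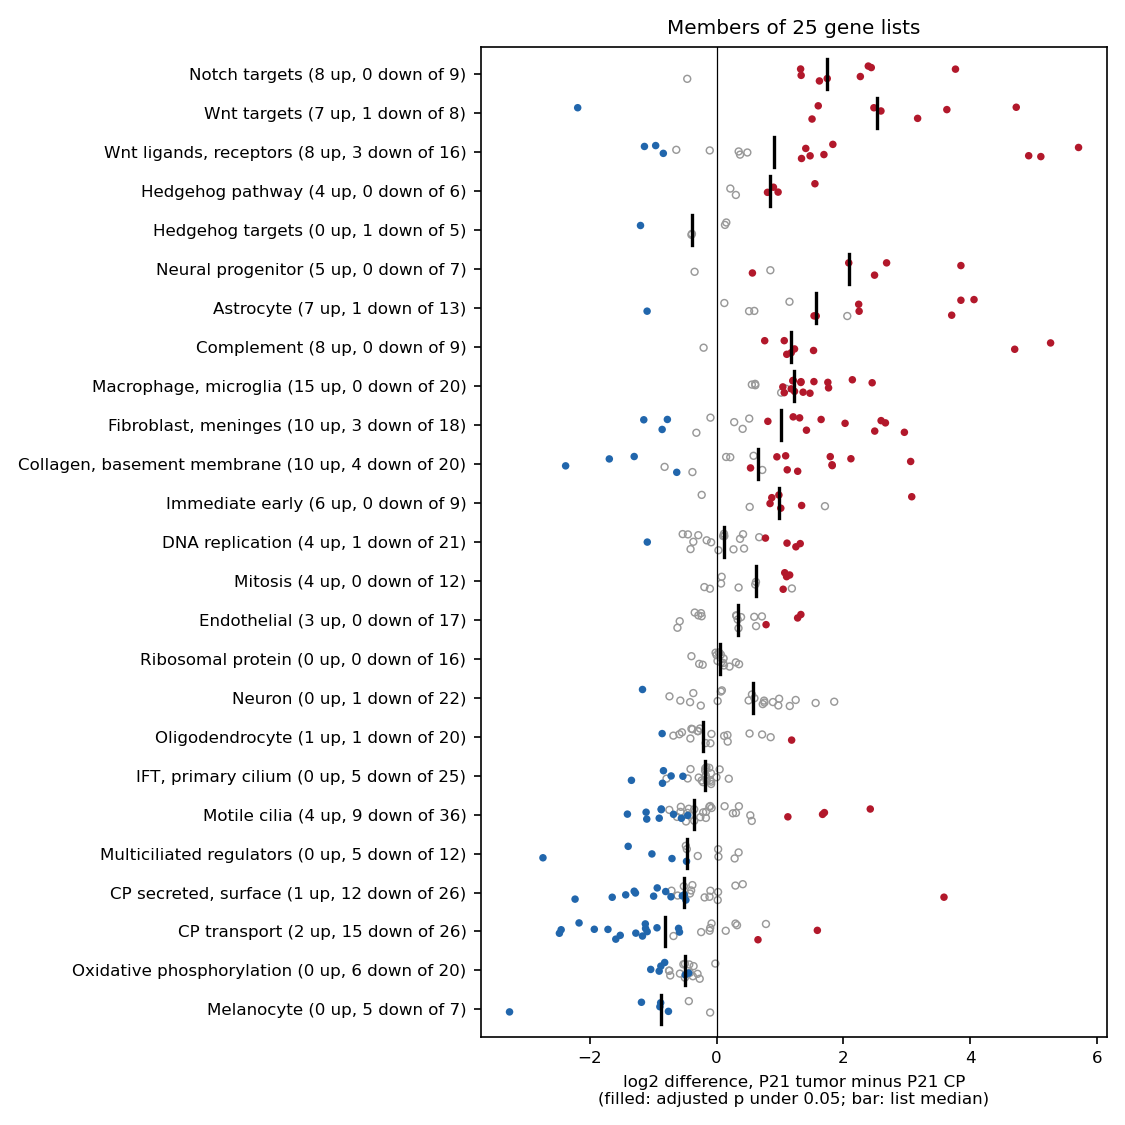
Difference between P21 tumors and P21 CP (log2, tumor minus CP) of the tested members of gene lists; each point is a gene, filled red (higher) or blue (lower) where the limma adjusted p is under 0.05 and open otherwise, and the bar is the list median. Notch targets, Wnt targets and macrophage genes lie mostly to the right, ribosomal protein genes lie around 0, and CP transport genes lie mostly to the left.

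Astrocyte and progenitor genes were higher in tumors. Of 13 tested astrocyte genes, 7 rose and 1 fell, with a median of 1.57, and of 7 tested neural progenitor genes, 5 rose and 0 fell, with a median of 2.08. Gfap, the intermediate filament of astrocytes, stood at 12.54, 12.29 and 11.27 in tumors against 8.30, 8.26 and 8.41 in CP (3.71 ± 0.32, adjusted p = 0.000468, 13.1-fold). Aqp4, the water channel of astrocyte endfeet, stood at 13.14, 13.06 and 11.42 in tumors against 8.66, 8.37 and 8.41 in CP (4.06 ± 0.45, adjusted p = 0.00104). Tumor 3 was the lowest tumor for both and still lay well above CP. Slc1a3 (the glutamate transporter GLAST, on both lists) rose by 3.85 ± 0.29 (adjusted p = 0.000288), and Gja1 (connexin 43) by 2.25 ± 0.29 (adjusted p = 0.0021). Aldh1l1, a folate enzyme used as a general astrocyte marker, went the other way, at 9.75, 9.50 and 9.79 in tumors against 10.72, 10.75 and 10.87 in CP (-1.10 ± 0.14, adjusted p = 0.00186).

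Neural signal moved with these genes in part, and its part in the result was not tested. Tumor 1 was the highest array for 10 of the 13 astrocyte genes, and the list's summed signal was 105890, 72655 and 44169 in tumors 1, 2 and 3, against 21719, 21210 and 20321 in CP. Without tumor 1, 8 astrocyte genes rose and 1 fell, and 5 progenitor genes rose. Nes (nestin), an intermediate filament of progenitors and reactive cells, stood at 8.84, 9.56 and 9.62 in tumors against 6.30, 6.62 and 7.06 in CP (2.68 ± 0.28, adjusted p = 0.000875). Prom1 (CD133), a membrane protein of progenitors and of ciliated surfaces, stood at 8.24, 8.45 and 8.36 in tumors and at 6.09, 6.05 and 5.44 in CP (2.49 ± 0.20, adjusted p = 0.000389). For these 2, tumor 1 was the lowest of the tumors. Vim (vimentin) rose by 2.08 ± 0.19 (adjusted p = 0.000561), and Sox9 rose by 0.56 ± 0.15 (adjusted p = 0.0324) at a high level in both groups, a call lost in 7 alternatives. Sox2 overlapped between groups, at 8.81, 9.45 and 8.01 in tumors and at 7.95, 7.79 and 7.98 in CP (0.85 ± 0.34, adjusted p = 0.107).

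Immune genes of the myeloid kind were higher in tumors. Of 20 tested macrophage and microglia genes, 15 rose and 0 fell, with a median of 1.22, and 18 rose without tumor 1. Lyve1, of perivascular and border macrophages and lymphatic vessels, was not detected in CP and was at least 3.64-fold higher, with 7.15, 7.73 and 7.97 in tumors against 5.36, 5.19 and 4.93 in CP (adjusted p = 0.000679). Mrc1, the mannose receptor of the same macrophages, stood at 10.65, 11.09 and 11.25 in tumors and at 9.35, 9.41 and 8.97 in CP (1.75 ± 0.21, adjusted p = 0.00144). Tumor 1 was the lowest tumor for each. F13a1, a coagulation factor of tissue macrophages, and Lyz2, lysozyme, rose by 2.14 ± 0.21 and 1.77 ± 0.18 (adjusted p = 0.00076 and 0.000787). Of 2 genes of resident microglia, Tmem119 showed 0.56 ± 0.18 (adjusted p = 0.0605) and P2ry12 0.61 ± 0.36 (adjusted p = 0.247). With tumor 2, CP 1 or CP 2 left out, 9, 9 and 7 genes of the list rose in place of 15.

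Complement genes gave some of the largest rises, with 8 of 9 tested genes higher and 0 lower. C4a stood at 12.39, 13.78 and 12.64 in tumors against 7.66, 7.40 and 7.94 in CP (5.27 ± 0.36, adjusted p = 0.00019, 38.6-fold). C4b stood at 11.37, 12.74 and 11.52 in tumors against 7.21, 7.02 and 7.29 in CP (4.70 ± 0.35, adjusted p = 0.000274). C4a and C4b are near-identical copies, so their probes may read each other, and the split between them is uncertain. C2, the partner protease of C4, rose by 1.53 ± 0.17 (adjusted p = 0.00119), and C1qc, a C1q chain made by macrophages, by 1.23 ± 0.31 (adjusted p = 0.026), a call lost in 7 alternatives. With tumor 2, CP 1 or CP 2 left out, 5, 4 and 5 of these genes rose.

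Other immune lists were mixed or thin. Of 17 interferon and antigen presentation genes, 5 rose and 2 fell, beside 14.1% higher and 13.9% lower over all genes. Ifit3 was among the rises (1.58 ± 0.23, adjusted p = 0.00337) and Bst2 among the falls (-1.54 ± 0.25, adjusted p = 0.00491). The count of rises was 2 or 3 when tumor 2, tumor 3 or any CP sample was left out, and 1 in the fit of 12 arrays. No member of the lymphocyte list passed the detection filter. Lcn2 (lipocalin-2), listed as a neutrophil gene and also made by inflamed epithelium and astrocytes, varied among tumors at 6.99, 10.33 and 9.60, against 6.02, 5.07 and 5.65 in CP (3.40 ± 0.80, adjusted p = 0.0203). That call was kept without tumor 1 (4.38, adjusted p = 0.000139) and lost when any other array was left out. Arc, an immediate early gene, stood at 8.07, 8.48 and 8.90 in tumors against 5.11, 6.17 and 4.94 in CP (3.08 ± 0.36, adjusted p = 0.00141), and 6 of 9 immediate early genes rose, a group that also responds to tissue handling.

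Most tested mast cell and pigment cell genes passed as lower in tumors. Of 5 tested mast cell genes, 4 fell and 1 rose. When only genes detected on all 6 arrays were tested, 1 fell and 1 rose. That fall was Hdc, which is also on the ependymal list. The mast cell protease Cpa3 stood at 5.49, 5.14 and 4.93 in tumors against 7.09, 7.11 and 6.43 in CP (-1.69 ± 0.24, adjusted p = 0.00294), and chymase, Cma1, was not detected in tumors and was at least 1.68-fold lower (adjusted p = 0.0054). Kit, a receptor of mast cells that other cell types express as well, was the gene that rose, at 13.57, 13.29 and 13.85 in tumors against 10.75, 11.19 and 10.70 in CP (2.69 ± 0.21, adjusted p = 0.000298). Of 7 tested pigment cell genes, 0 rose and 5 fell. The count of falls was 2 under median scaling and in the fit of 12 arrays. It was 3 without CP 2 or CP 3, and 3 when only genes detected on all 6 arrays were tested. The list was led by Dct, an enzyme of melanin synthesis, at 8.08, 7.33 and 7.96 in tumors against 10.74, 10.81 and 11.62 in CP (-3.27 ± 0.30, adjusted p = 0.000575).

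Among stromal and matrix genes, more passed as higher than as lower. Of 18 tested fibroblast and meningeal genes, 10 rose and 3 fell (1 in the fit of 12 arrays), and of 20 genes of collagens and basement membrane, 10 rose and 4 fell. Col1a2, of fibrillar collagen, stood at 11.47, 12.12 and 11.50 in tumors against 8.65, 8.48 and 9.06 in CP (2.96 ± 0.24, adjusted p = 0.00036). Slc6a13, a GABA and taurine transporter of meningeal cells, rose by 2.66 ± 0.25 (adjusted p = 0.00063), Slc22a6, an organic anion transporter, by 2.49 ± 0.24 (adjusted p = 0.000721), and Fbln2, a fibulin, by 2.59 ± 0.36 (adjusted p = 0.00268). The laminins split: Lamb2 rose, at 11.12, 12.24 and 11.90 in tumors against 9.53, 9.57 and 9.81 in CP (2.12 ± 0.28, adjusted p = 0.00231), while Lamb1 fell, at 6.56, 6.30 and 7.06 in tumors against 8.75, 9.22 and 9.11 in CP (-2.38 ± 0.23, adjusted p = 0.000701). Fn1 (fibronectin) rose by 3.06 ± 0.28 (adjusted p = 0.000575), and Acta2, the actin of smooth muscle and myofibroblasts, by 3.02 ± 0.36 (adjusted p = 0.00155). Acta2 had the largest rise on a list of pericyte and smooth muscle genes, of which 3 of 11 tested rose and 2 fell. Abcc9 was among the falls (-1.10 ± 0.23, adjusted p = 0.0126), a call lost with median scaling and without CP 1. Of 17 endothelial genes, 3 rose and 0 fell, beside 14.1% higher and 13.9% lower over all genes. The rises were led by Vwf (von Willebrand factor, 1.33), and their count was 1 without tumor 2 or CP 2 and 5 without CP 3.

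Cell cycle genes were tested as replication and mitosis lists, with 12 of the 22 members of the mitosis list tested. Of 21 tested genes of DNA replication, 4 rose and 1 fell, with a median of 0.12, and of 12 mitotic genes, 4 rose and 0 fell, with a median of 0.61, beside 14.1% of all genes higher and 13.9% lower. Cdt1, which loads the replicative helicase, stood at 8.75, 8.90 and 9.09 in tumors against 7.78, 7.29 and 7.91 in CP (1.25 ± 0.20, adjusted p = 0.00466), and the helicase subunit Mcm5 rose by 1.11 ± 0.18 (adjusted p = 0.00489). Pcna, the sliding clamp, fell, at 6.32, 6.26 and 6.15 in tumors against 7.34, 7.34 and 7.33 in CP (-1.09 ± 0.12, adjusted p = 0.00116). Cdc20, an activator of the anaphase-promoting complex, rose by 1.15 ± 0.27 (adjusted p = 0.0203) and Cenpa, the centromeric histone, by 1.05 ± 0.25 (adjusted p = 0.0212), but the mitotic count was 7 with cyclic loess and without tumor 1, 1 without tumor 2, and 2, 0 and 1 without CP 1, CP 2 and CP 3. Kif23, a mitotic kinesin, rose by 1.10 ± 0.22 (adjusted p = 0.0111) on its brightest probe, and its probes passed in opposite directions.

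Brakes of the cell cycle moved both ways. Cdkn2b (p15), an inhibitor of cyclin D kinases, stood at 9.91, 10.47 and 10.31 in tumors against 8.27, 8.18 and 8.52 in CP (1.91 ± 0.19, adjusted p = 0.00076). Cdkn2c (p18) rose by 1.15 ± 0.28 (adjusted p = 0.023), lost without tumor 2, CP 1 or CP 2. Cdkn1c (p57), abundant in normal choroid plexus, fell, at 13.79, 13.67 and 13.80 in tumors against 15.10, 15.07 and 15.18 in CP (-1.36 ± 0.12, adjusted p = 0.000568). The spread within each group was far smaller than the gap between them.

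Housekeeping groups showed small shifts. Of 16 ribosomal protein genes, 0 passed in either direction in limma, with a median of 0.05. Of 20 genes of oxidative phosphorylation, 0 rose and 6 fell, with a median of -0.50, led by Cox7a2 (-1.04 ± 0.25, adjusted p = 0.0226), but 1 fell with median scaling and in the fit of 12 arrays, 0 with tumor 2 or any CP sample left out, and 12 with tumor 3 left out. Of 14 glycolytic genes, 0 rose and 3 fell, beside 13.9% lower over all genes. The count of these falls was 1 with tumor 2, CP 1 or CP 2 left out.

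The tumor difference was not the same at P21 as at P0. The P0 arrays lay on another BeadChip than the P21 arrays. Each tumor difference was thus taken within a BeadChip, but age and BeadChip cannot be told apart. In a limma fit of all 12 arrays with a mean for each group, the difference between the P21 effect and the P0 effect passed for 549 of 12379 genes (4.43%), 388 (3.13%) with the more positive effect at P21 and 161 (1.3%) with the more positive effect at P0. The count was 299 without P21 tumor 2, 336, 313 and 337 without P21 CP 1, CP 2 and CP 3, and 318 without P0 tumor 3. C4a had the largest difference, with a tumor effect of 5.27 at P21 and -0.32 at P0 (5.59 ± 0.49, adjusted p = 0.000165). C4b followed with 4.71 at P21 and -0.64 at P0 (5.35 ± 0.50, adjusted p = 0.000165), Slc25a18, a mitochondrial glutamate carrier, with 4.26 at P21 and -0.94 at P0 (5.2 ± 0.48, adjusted p = 0.000165), and Mmd2 with 4.25 at P21 and -0.53 at P0 (4.78 ± 0.89, adjusted p = 0.00949). In none of these 4 genes did the P0 effect pass (adjusted p of 0.622 for C4a, 0.295 for C4b, 0.101 for Slc25a18 and 0.655 for Mmd2). Of 14 astrocyte genes in this fit, 5 had the more positive effect at P21 and 0 at P0, with a median effect of 1.73 at P21 and -0.20 at P0.

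**Figure D5:**
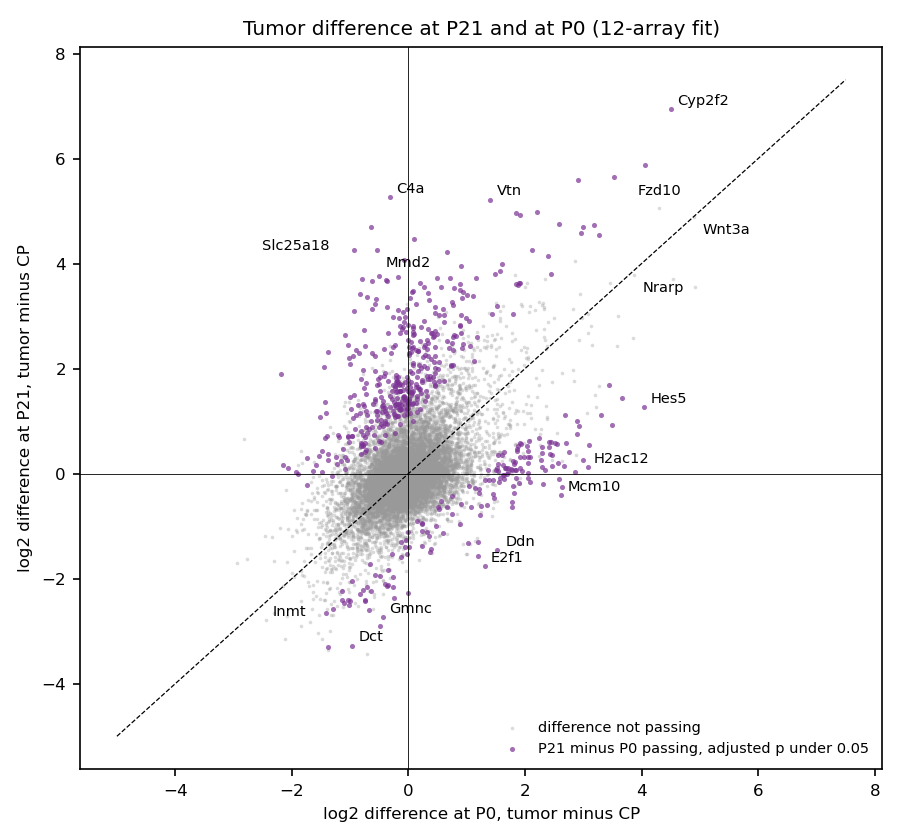
Tumor minus CP difference at P0 (horizontal axis, log2) against that at P21 (vertical axis, log2) for the 12379 genes of the fit of 12 arrays; purple points are genes whose 2 differences differ at an adjusted p under 0.05 in limma, and the dashed line marks equal differences. C4a lies at 5.27 at P21 and near 0 at P0, and Mcm10 lies at 2.62 at P0 and -0.41 at P21.

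The genes with the more positive effect at P0 included several of proliferating cells. E2f1, a transcription factor of S phase entry, showed -1.76 at P21 and 1.31 at P0 (-3.07 ± 0.30, adjusted p = 0.000182). Mcm10, of the replication origin, showed -0.41 at P21 and 2.62 at P0 (-3.03 ± 0.30, adjusted p = 0.000199). Ddn (dendrin) showed -1.46 at P21 and 1.52 at P0 (-2.98 ± 0.45, adjusted p = 0.00288), and H2ac12, a replication-dependent histone whose copies are near-identical, showed 0.13 at P21 and 3.08 at P0 (-2.95 ± 0.46, adjusted p = 0.00393). Of 22 DNA replication genes, 0 had the more positive effect at P21 and 10 at P0, with a median effect of 0.12 at P21 and 1.75 at P0, and of 15 mitotic genes 0 had it at P21 and 8 at P0, with a median of 0.59 at P21 and 1.91 at P0. Among Notch targets, Dtx1 and Dtx4 had the more positive effect at P21. Hes5 passed with the more positive effect at P0, but its P21 effect rests on CP arrays on which it was not detected, so the size of that age difference is not known.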

How the data were processed

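RNA was measured on Illumina mouse BeadChips. The authors deposited a table of probe intensities without normalization, each with a detection p-value, per the file headers, and a table of their own normalized values, used here only as an alternative. From the 6 P21 arrays, background was corrected by normexp with negative controls inferred from the detection p-values, an offset of 16 was added, and arrays were quantile normalized and put on the log2 scale (R 4.3.3, limma 3.58.1). Of 45281 probes, 21953 were detected (detection p under 0.05) on at least 3 of 6 arrays and 18438 of these had 1 symbol. The brightest probe stood for each of 11530 genes, and 4642 genes had more than 1 probe.

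Tumors and CP were compared by lmFit and eBayes with Benjamini-Hochberg adjustment over all genes, and every adjusted p in the text is from limma. The P21 effect minus the P0 effect came from a fit of all 12 arrays (12379 genes). In a group with no array above background, a change is given as a bound against the lowest signal of detected probes. The number of arrays limits the precision. On simulated data, 48% of 100 genes changed by 1 on the log2 scale and 93% of 100 changed by 2 were recovered, with 6 false calls. The simulation changed far fewer genes than passed here and gave both groups the same spread, so these rates need not hold for the real arrays.

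The comparison and the gene lists were chosen with earlier results of these data known. Genes were named by rule: 18 fixed genes, the 12 largest rises and falls that passed without overlap, up to 4 members of each list, the 15 largest excesses of tumor 1 with 3 each of the neuron, granule neuron and oligodendrocyte lists, and the 4 largest age differences each way. The fixed genes Gli1, Shh, Mycn, Mcidas, Mki67 and Atoh1 were not among the genes tested. Further genes were chosen after their values were seen: Aldh1l1, Atp1b2, Axin2, Car14, Cdh1, Dtx4, Eif2s3y, Fzd8, Hey2, Lef1, Lgr5, Lrp5, Notum, P2ry12, Rfx3, Sox2, Sox9, Tmem119, Wnt4, Wnt5b, Wnt8b and Xist. Alternatives were other background, scaling, filter and probe rules, array weights, a replicate block, the fit of 12 arrays and leaving out each array.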

Additional observations from a re-analysis of the deposited data

Results flagged for a closer look

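For 53 of the 167 named genes in the fit of 12 arrays, the tumor difference at P21 and that at P0 differed in a limma test of the difference itself, with an adjusted p under 0.05, beside 4.43% of all 12379 genes. The named genes were in large part chosen for their size at P21 or for their age difference, so this count is a description. Values are the P21 effect minus the P0 effect on the log2 scale, so that a positive value means a more positive tumor effect at P21.

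Differences above 3 were found for C4a (5.59), C4b (5.35), Slc25a18 (5.2), Mmd2 (4.78), Gfap (4.52), Aqp4 (4.14), Lcn2 (4.07), Vtn (3.81), Fam183b (3.18), Kcne1l (3.11) and Sncaip (3.02). Differences between 2 and 3 were found for Slc6a13 (2.82), Mboat1 (2.78), Fzd10os (2.68), Cyp2f2 (2.44), Acta2 (2.42), Dtx1 (2.40), Slc1a3 (2.29), Pcsk6 (2.17), Jam2 (2.17), Rspo1 (2.12) and Id4 (2.02). Smaller positive differences were found for Vim (1.99), Col1a2 (1.97), Vwf (1.94), Gja1 (1.90), Atp1b2 (1.85), Shisal1 (1.81), Kit (1.78), Ifit3 (1.77), Sp5 (1.73), Dnah2 (1.71), Lrp2 (1.71), Apcdd1 (1.56), Prom1 (1.52), Apoe (1.5), Dtx4 (1.44), Nkd1 (1.42), Cldn11 (1.27) and Maml2 (1.01).

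The effect was more positive at P0 for 13 genes. Of these, E2f1 (-3.07), Mcm10 (-3.03), H2ac12 (-2.95) and Mcm5 (-2.19) belong to replication and its histones, and Hes5 (-2.77) is a Notch target. Hes5, Rspo1 and Kcne1l were not detected on any P21 CP array, so the size of their differences is not known. The others were Ddn (-2.98), Ltc4s (-2.42), Dct (-2.31), Gmnc (-2.30), Tmprss11a (-1.92), Cdh3 (-1.46), Trpv4 (-1.34) and Krt8 (-1.09).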

How the results depend on the processing

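Of 187 genes named for the difference between tumors and CP and tested, those chosen after seeing their values included, 174 passed. Of these, 125 passed under every alternative that tested them, 49 were lost in at least 1, and 0 changed sign. When detection on all arrays was required, only 145 of the 187 were tested. Genes left out by that filter, such as Wnt3a and Rspo1, were not counted as lost there. The 3230 calls (1630 higher, 1600 lower) became 2221 in the fit of 12 arrays, with 921 lower, 2895 with median scaling, with 849 lower, and 5797 with array weights, with 2738 higher and 3059 lower. Leaving out 1 array gave 1839 to 3849 calls, 1048 to 1948 of them higher and 791 to 1901 lower. The 549 age differences became 346 when detection on all arrays was required and 299 to 739 with 1 array left out. Genes that had not passed changed sign: Ptch1 (0.13) to -0.003 with the mean of probes and -0.12 with array weights, Vsnl1 (0.08) to -1.0 with array weights and to between -2.06 (without tumor 1) and 1.67 (without tumor 3) with 1 array left out, -0.03 without CP 1 among them, and Mobp (-0.68) to between -2.54 (without tumor 1) and 0.59 (without tumor 3). The causes were not tested. With the replicate number as a block, 2317 genes passed, 1032 of them lower and 2270 shared with the 3230, and 611 age differences passed. Deviations of same-numbered P21 arrays from their group means had r across genes of -0.09, -0.03 and -0.15, against -0.06 to 0.14 for differently numbered ones. Such small values cannot decide whether same-numbered pools share more than a number. Array weights were not run for the age difference, where they did not converge. Low signals limit Hes5 and other genes near background, and Ttr sits at the top of the scale.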
